A study of Mus musculus with 24 samples.

Results

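Genes of cholesterol synthesis and uptake were examined in epithelia and cortical fiber cells of the lens from mice with normal, mildly lowered and severely lowered glutathione. The set held 34 genes listed by symbol for what their products do. No rule on measured values picked them, but earlier results of these data were known when they were listed. Of these, 33 were found among the 24415 genes of the count table, and 1, Faxdc2, was not analysed here. The 33 members fell into 6 role groups, namely 6 genes of the mevalonate steps, 3 of the isoprenoid steps, 3 of the steps from farnesyl units to lanosterol, 9 of the sterol ring and side chain steps, 4 regulators, and 8 genes of uptake, transport and storage. All 33 passed the filter on low counts in every comparison.

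RNA was sequenced from 24 mouse libraries on a C57BL/6 background, 4 in each of 6 groups. Wild-type (WT) mice were untreated. LEGSKO mice were untreated and had, per the labels, a mild lack of glutathione, and LEGSKO mice that received buthionine sulfoximine (LEGSKO+BSO) had a severe one. The LEGSKO mouse is known as a model in which Gclc is deleted in the lens alone. Gclc encodes the catalytic part of the enzyme that starts glutathione synthesis, and buthionine sulfoximine inhibits the same enzyme. The LEGSKO+BSO groups therefore differ from WT in both genotype and drug, and no WT group given the drug was analysed here. Age, sex, the driver of the knockout, the dose and duration of the drug and whether libraries came from separate animals stand in none of the sources at hand. All p-values measure the spread between these libraries, which may be partly technical.

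Cholesterol is built from acetyl units through mevalonate, isoprenoid diphosphates, squalene and lanosterol. When sterol in the endoplasmic reticulum is low, SCAP escorts the precursor of the transcription factor SREBP-2 (Srebf2) to the Golgi for cleavage, and the released factor raises the genes of synthesis and uptake. INSIG proteins hold SCAP back when sterol is plentiful, and Insig1 is itself a target of this factor. Lens fiber membranes are known for an unusually high cholesterol content, and the avascular lens is thought to make much of its own sterol.

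The promoters of 4 members that turn up in the results below are shown, since this group of genes is known for control at the promoter by SREBP-2 together with the factors NF-Y and Sp1. The sequences are the 250 bases before the annotated start from RefSeq (GRCm38.p6), written 5′ to 3′ along the gene. Capitals mark matches, on either strand, to the sterol regulatory element core TCACNCCAC, the CCAAT box bound by NF-Y, and the GC box GGGCGG. On the opposite strand the CCAAT box reads ATTGG and the GC box reads CCGCCC. No match in a printed sequence overlapped another.
Insig1 (chr5:28071162-28071411, plus strand): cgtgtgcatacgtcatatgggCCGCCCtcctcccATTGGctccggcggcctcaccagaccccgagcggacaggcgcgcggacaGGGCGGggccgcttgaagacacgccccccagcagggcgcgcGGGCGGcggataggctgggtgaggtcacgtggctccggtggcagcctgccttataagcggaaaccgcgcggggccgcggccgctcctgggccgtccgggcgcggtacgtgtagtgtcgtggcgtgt
Hmgcs1 (chr13:119690101-119690350, plus strand): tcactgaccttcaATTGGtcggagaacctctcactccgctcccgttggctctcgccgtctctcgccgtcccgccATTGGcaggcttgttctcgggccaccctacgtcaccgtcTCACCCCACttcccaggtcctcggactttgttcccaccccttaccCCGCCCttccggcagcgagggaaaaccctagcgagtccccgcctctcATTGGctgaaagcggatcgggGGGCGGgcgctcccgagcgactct
Idi1 (chr13:8885356-8885605, plus strand): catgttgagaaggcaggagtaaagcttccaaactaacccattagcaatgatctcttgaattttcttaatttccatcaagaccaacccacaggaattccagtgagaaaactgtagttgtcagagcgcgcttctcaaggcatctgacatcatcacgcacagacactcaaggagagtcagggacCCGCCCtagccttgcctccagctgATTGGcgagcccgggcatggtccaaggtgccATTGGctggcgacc
Msmo1 (chr8:64733579-64733828, minus strand): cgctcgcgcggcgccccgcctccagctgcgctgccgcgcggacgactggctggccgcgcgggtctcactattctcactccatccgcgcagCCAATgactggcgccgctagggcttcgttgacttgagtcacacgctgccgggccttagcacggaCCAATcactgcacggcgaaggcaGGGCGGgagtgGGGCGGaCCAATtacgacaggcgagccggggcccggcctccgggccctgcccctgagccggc

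Promoter windows were matched for 26 of the 33 members. The CCAAT box was found in 23 of these 26, against 37.5% of all 27025 genes with a window and 40.8% of the 12092 such genes that were tested in both tissues together. The GC box was found in 22 of 26, against 35.4% of all genes and 60.1% of those tested. The strict element core was found in 1 of 26, Hmgcs1, against 1.22% of all genes, and it lay 129 to 137 bases before the start. Genes with several annotated starts were counted once if any window held the motif, and these 3 motifs were settled after candidate motifs had been scanned in the members' windows. A match describes letters in this window only.

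Total counts were 19340282 to 33892720 per library in epithelia and 22408316 to 46569611 in fibers, and the LEGSKO+BSO fibers were the most deeply sequenced. The fiber library WT 1 stood apart from the rest. Crystallins, the lens structural proteins, took 50.1% of its counts, compared with 27.6 to 29.6% for WT Fibers 2, 3 and 4. Several sterol enzymes were far above the other 3 in scaled counts. As a share of total counts, the members together were at 0.113% in WT Fibers 1. In WT Fibers 2, 3 and 4 that share was 0.160, 0.140 and 0.157%, so the size of the excess depends on the scaling. Calls of members in fibers, and their named fiber changes that WT Fibers 1 moved by over 1.5 times, are therefore also given without this library. For other sterol genes called in fibers, the libraries whose removal ended a call are named instead. Levels are given as CPM, counts scaled to the effective library size. Gclc ranged over 66.6 to 95.9 CPM for WT epithelia, 44.6 to 70.5 for LEGSKO and 63.6 to 108 for LEGSKO+BSO. In fibers those ranges were 70.4 to 135, 66.9 to 81.2 and 69.3 to 79.3. Gclc passed the test in 0 of the 6 comparisons between conditions, with adjusted p from 0.105 to 0.984 (edgeR). Which part of the gene is deleted is not stated in the labels, and a count over the whole gene does not check the label.

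Summed over 6 genes, markers of lens epithelium were at 3035 to 3510 CPM in epithelia and 293 to 515 in fibers, and 10 lens fiber markers were at 15009 to 30319 and 97277 to 123617, so the libraries matched their labelled tissue. Of the 6 epithelium markers, 5 were called lower and 1 higher in WT fibers than in WT epithelia. Their sum in WT fibers was mostly Cdh2, at a mean of 341 CPM, and the others summed to 55.9 to 122. Within epithelia the fiber markers were at 20426 to 30319 CPM for WT, 16940 to 27244 for LEGSKO and 15009 to 24838 for LEGSKO+BSO. Among markers of other cells, 6 corneal and conjunctival markers were at 813 to 2079 CPM in WT epithelia, 2181 to 3160 in LEGSKO and 2851 to 4213 in LEGSKO+BSO epithelia, led by Aldh3a1. The 5 other genes of that list summed to 91.5 to 139, 192 to 217 and 169 to 194. A list of 7 muscle and stroma markers was at 362 to 551 in WT fibers, 655 to 700.5 in LEGSKO and 654 to 760.0 in LEGSKO+BSO fibers, nearly all of it Acta2. The 362 was WT Fibers 1, and WT Fibers 2, 3 and 4 were at 528 to 551. In epithelia the list was at 137 to 193, 280 to 306 and 234 to 293. Retina markers varied from 17.9 to 394 across epithelial libraries.

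In WT lens the highest member per kilobase of exon was Insig1, the sterol-sensing brake on SREBP cleavage. Levels are given here as CPM per kilobase of exon with all 24 libraries scaled together, so that genes and tissues can be set side by side. Insig1 was at 260.4 ± 22.7 in WT fibers and 55.4 ± 5.95 in WT epithelia (SD, n = 4), which placed it at percentile 98.7 and 97.5 of all genes tested. In fibers it was followed by Pmvk, phosphomevalonate kinase, at 33.2 ± 2.68, by Hmgcs1, the cytosolic hydroxymethylglutaryl-CoA synthase, at 29.7 ± 12.3, by Cyp51, the lanosterol demethylase, at 28.3 ± 5.65 and by Fdft1, squalene synthase, at 26.2 ± 6.25. The ranges of those last 4 over the libraries overlapped, so that their order is not resolved. In epithelia the next were Npc2, the soluble lysosomal sterol carrier, at 19.46 ± 1.12, Hmgcs1 at 17.7 ± 2.54 and Srebf2 at 13.2 ± 0.839. The lowest in both tissues was Lrp8, a lipoprotein receptor, at 0.573 ± 0.0534 in fibers and 0.630 ± 0.0617 in epithelia.

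**Figure D1:**
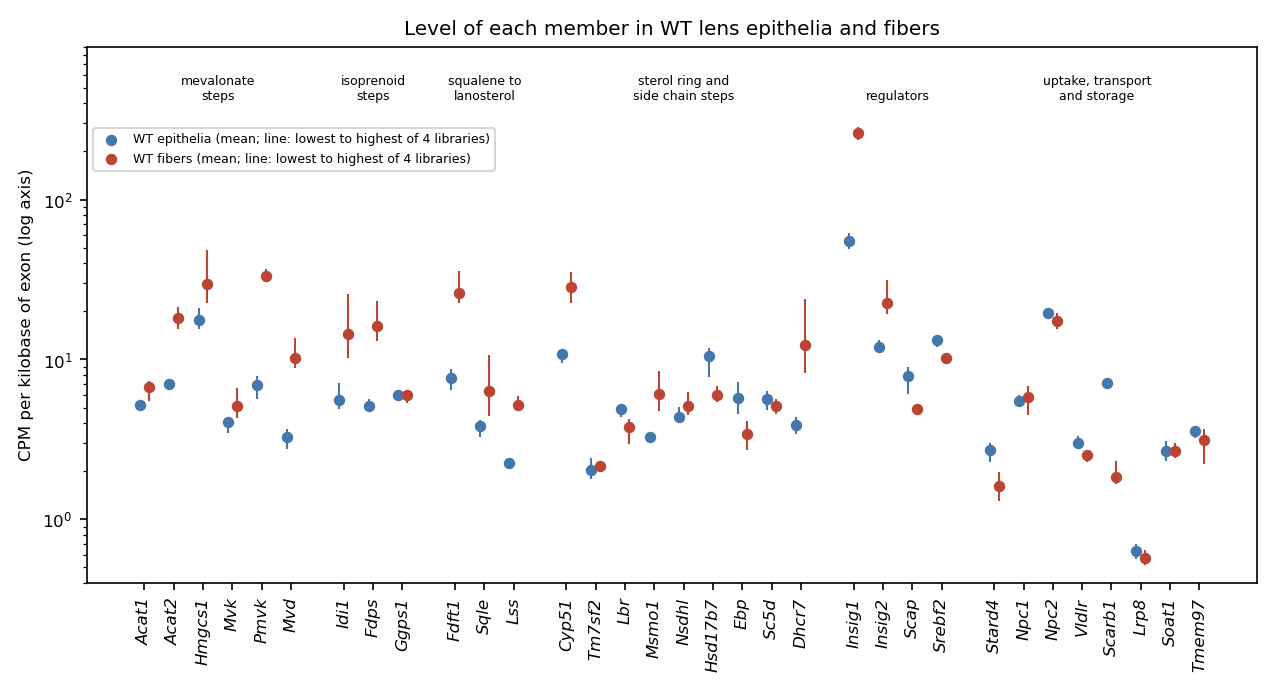
Level of the 33 members in WT epithelia (blue) and WT fibers (red), as CPM per kilobase of exon on a log axis, grouped by role. Points are means of 4 libraries and lines run from the lowest to the highest. Insig1 stands above all other members in both tissues, and the early synthesis steps are mostly higher in fibers.

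Members of the synthesis steps up to lanosterol, and both INSIG genes, were mostly higher in fibers than in epithelia of WT mice, and of the 8 uptake, transport and storage members 0 were, or 1 (Npc1) without WT Fibers 1. The study itself compared conditions only within a tissue, so that this comparison lies outside its own design. In WT, 16 members were higher and 7 lower in fibers (edgeR quasi-likelihood test, adjusted p below 0.05). Across all 15560 genes tested 76.4% were called, 37.0% higher and 39.4% lower, so that 23 of 33 is a share near the background. The members' median log2 difference was 0.22, beside -0.09 over all genes. Both compared tissues are bulk samples, in which fewer cells of a type and less RNA per cell cannot be told apart.

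All 6 mevalonate members were higher in WT fibers, from Mvk, mevalonate kinase, at a log2 difference of 0.34 (SE 0.11) to Pmvk at 2.26 (SE 0.11). Pmvk was at 31.3, 33.3, 37.0 and 31.3 CPM per kilobase in the 4 WT fiber libraries and at 7.83, 7.03, 5.64 and 7.28 in the 4 WT epithelial ones. Every fiber library lay far above every epithelial one. In this comparison the groups did not overlap for 23 members and for 67.5% of all genes. Among the isoprenoid steps Fdps, farnesyl diphosphate synthase, was higher in fibers by 1.67 (SE 0.13) and Idi1, isopentenyl diphosphate isomerase, by 1.34 (SE 0.21), while Ggps1, which makes the longer geranylgeranyl unit, differed by -0.0017 (SE 0.07) and was not called. Exons of Gm43738 on the same strand cover 26.7% of the exon bases of Fdps, so that reads from the shared bases cannot be told apart. Fdft1 was higher by 1.77 (SE 0.13) and Sqle, squalene epoxidase, by 0.72 (SE 0.19). Without the library WT Fibers 1, the difference was 0.90 for Idi1, 0.35 for Sqle and 0.39 for Hmgcs1, each still called, while Mvk at 0.18 was no longer called.

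The ring and side chain group was split. Dhcr7, the reductase of the last step to cholesterol, was higher in fibers by 1.63 (SE 0.22, or 1.08 without WT Fibers 1) and Hsd17b7, the sterol ketone reductase, was lower by 0.81 (SE 0.11), with 3 called in each direction. Among regulators Insig1 was higher by 2.23 (SE 0.12), and Scap, the escort of SREBP, was lower by 0.69 (SE 0.09). Insig1 was at 249, 283, 234 and 275 CPM per kilobase in the WT fiber libraries and at 49.0, 59.4, 61.4 and 51.8 in the WT epithelial ones, with no overlap. Of the 8 uptake, transport and storage members, 2 were lower in fibers, namely Stard4, a cytosolic sterol carrier, by 0.75 (SE 0.14) and Scarb1, the HDL receptor, by 1.94 (SE 0.11). Scarb1 was at 1.71, 1.68, 2.30 and 1.67 CPM per kilobase in WT fibers and at 6.56, 7.17, 7.40 and 7.27 in WT epithelia. These did not overlap either, as for 67.5% of all genes. With WT Fibers 1 left out, Npc1 was called higher in fibers by 0.17 (SE 0.07, adjusted p = 0.0246), and Npc2 and the desaturase Sc5d were called lower by 0.24 and 0.23 (adjusted p = 0.0247 and 0.0292).

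The same comparison called 16 members higher and 10 lower in LEGSKO (all genes, 36.8% and 39.0%, or 75.8% in either direction) and 13 higher and 11 lower in LEGSKO+BSO (all genes, 38.1% and 40.8%, or 78.9%). The members' median was 0.16 in LEGSKO and 0.05 in LEGSKO+BSO, beside -0.08 and -0.09 over all genes. Under the other scaling tried, relative log expression, the members' medians were 0.16, 0.10 and -0.02 for WT, LEGSKO and LEGSKO+BSO, and those over all genes shifted with them, to -0.15, -0.14 and -0.16.

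In LEGSKO+BSO fibers 6 members fell against WT fibers, 0 rose and 27 were not called (edgeR). Most members of every role group were among those not called. The 6 were Hmgcs1 of the mevalonate steps, Idi1 of the isoprenoid steps, Fdft1, the sterol ring enzymes Msmo1 and Dhcr7, and the regulator Insig1. From here on CPM are scaled within a tissue and are not divided by gene length, so that they compare libraries of 1 gene, and a call is one by edgeR unless DESeq2 is named. DESeq2 called 11 members lower, the same 6 together with Sqle, Lss, Fdps, Cyp51 and Stard4. Shares of all genes called, here and below, are from edgeR, so counts by DESeq2 have no background beside them. Of 13436 genes tested by edgeR, 5.52% were called, and 2.47% were lower and 3.05% higher. All 6 members called were lower, so their count is read against the share of genes lower. The log2 change was below 0 for 27 of the 33, with a median of -0.27, beside 52.3% below 0 and a median of -0.01 over all genes. Groups did not overlap for 14 members, in each case lower in LEGSKO+BSO, against 6.80% of all genes, and 21 were lower at an unadjusted p below 0.05, against 10.9%. Fitting only the 2 groups compared called 4 lower, with Hmgcs1, Idi1 and Dhcr7 no longer called (adjusted p = 0.0727, 0.0953 and 0.122) and Vldlr added.

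**Figure D2:**
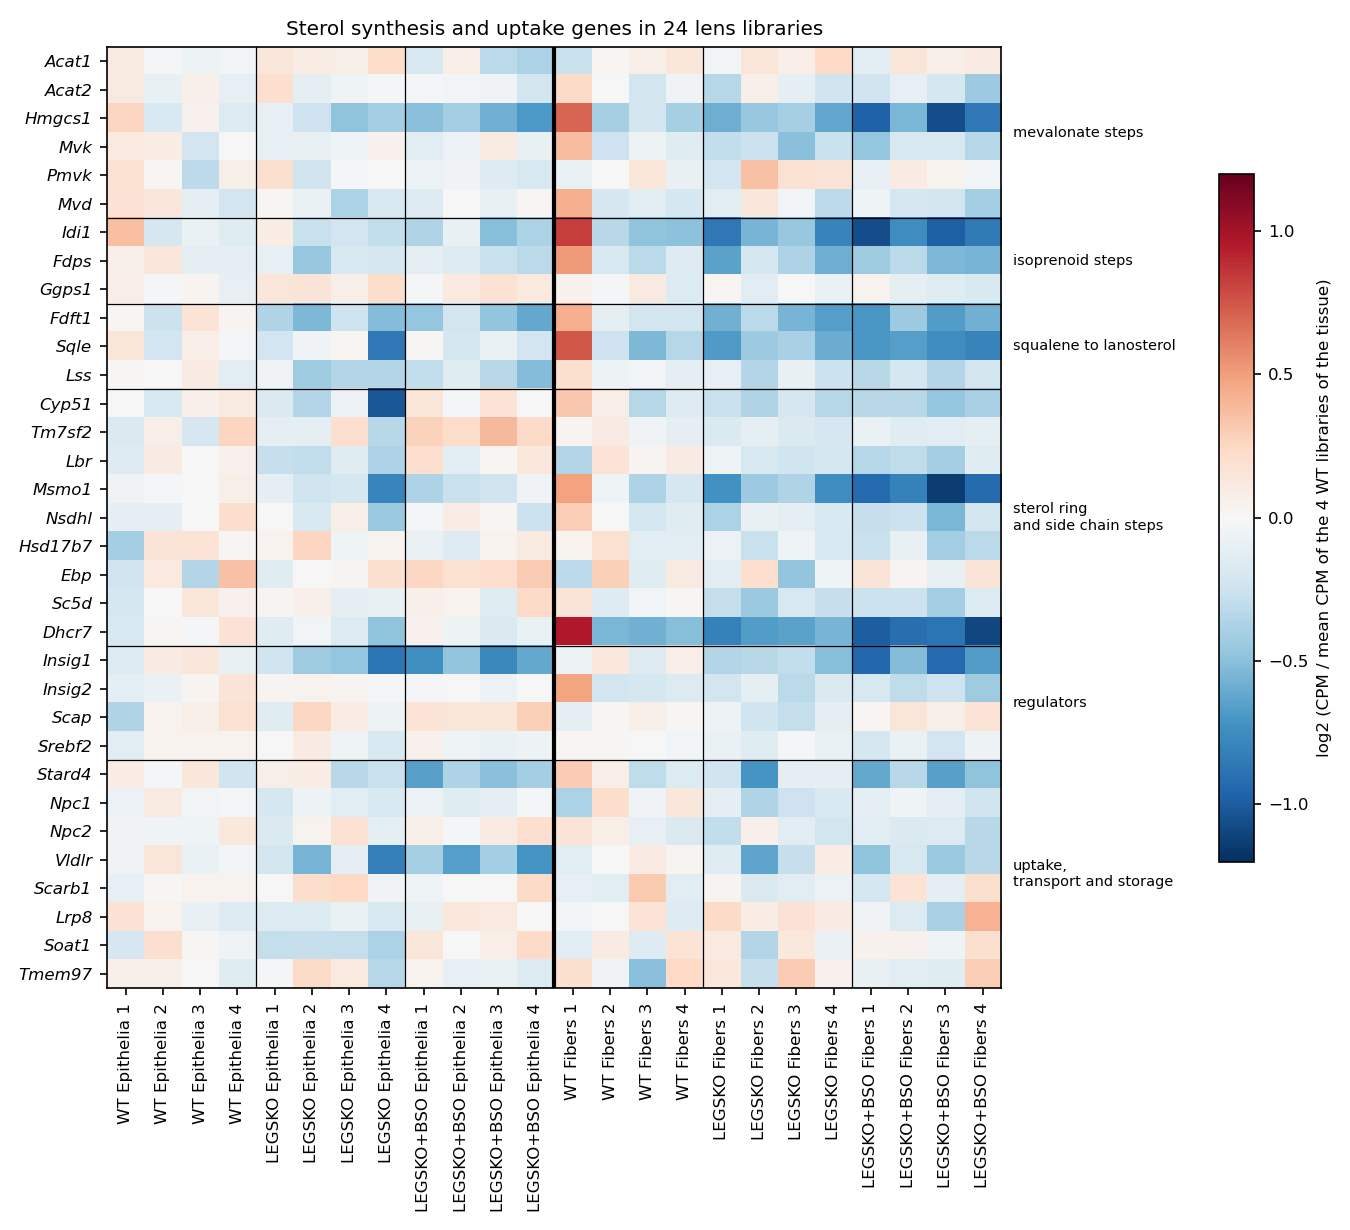
Log2 ratio of each member's CPM to the mean of the 4 WT libraries of the same tissue, for 24 libraries (columns, numbered within a group) and 33 members (rows, grouped by role). Blue is below and red above the WT mean. WT Fibers 1 is red for many synthesis enzymes, and the LEGSKO+BSO fiber columns are blue for Hmgcs1, Idi1, Fdft1, Sqle, Msmo1, Dhcr7 and Insig1.

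Insig1 (gene at chr5:28071412-28078662), whose promoter is shown above, was at 524, 596, 489 and 576 CPM in the 4 WT fiber libraries, 428, 434, 446 and 384 for LEGSKO and 285, 381, 286 and 342 for LEGSKO+BSO fibers. All LEGSKO+BSO libraries lay below all WT libraries, and so did all LEGSKO libraries. Insig1 fell by 0.76 on the log2 scale in LEGSKO+BSO (SE 0.10, 1.69-fold lower, adjusted p = 9.13e-04). The call held in all 14 alternatives tried for it, with changes from -0.84 to -0.69. Here WT Fibers 1 was not apart, and without it the change was -0.78.

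The other regulators did not pass. Srebf2, the gene of the transcription factor itself, was at 50.4, 50.1, 49.4 and 48.5 CPM for WT, 46.9, 44.9, 48.9 and 46.9 for LEGSKO and 43.1, 47.0, 42.2 and 47.6 for LEGSKO+BSO fibers. Its LEGSKO+BSO libraries all lay below the WT libraries, by a small margin, and the log2 change was -0.14 (SE 0.06, adjusted p = 0.190). The change was -0.29 (SE 0.13) for Insig2, the second INSIG gene, and -0.09 (SE 0.07) without WT Fibers 1. Scap differed by 0.10 (SE 0.07), or 0.06 without that library.

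Hmgcs1 (chr13:119690351-119708260), an enzyme of the mevalonate steps, was at 150.01, 70.4, 79.7 and 70.3 CPM for WT, 61.8, 67.7, 70.0 and 60.0 for LEGSKO and 47.3, 63.4, 44.3 and 51.2 for LEGSKO+BSO fibers. WT Fibers 1 was far above the other 3 WT libraries, and LEGSKO+BSO did not overlap WT with or without it. Hmgcs1 fell by 0.84 (SE 0.20, adjusted p = 0.0258), and by 0.51 (SE 0.10, adjusted p = 0.00460) without WT Fibers 1. The call was lost without LEGSKO+BSO Fibers 1, 3 or 4, at adjusted p = 0.0792, 0.0854 and 0.0658. The other 5 mevalonate members were not called, with changes from -0.28 for Mvk to 0.04 for Acat1, an acetoacetyl-CoA thiolase. These were -0.14 and -0.03 without WT Fibers 1.

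Idi1 (chr13:8885606-8892396), which interconverts the basic isoprenoid units, was at 60.8, 27.0, 24.5 and 24.2 CPM for WT, 18.8, 23.3, 24.9 and 19.6 for LEGSKO and 16.3, 20.4, 17.4 and 18.9 for LEGSKO+BSO fibers. WT Fibers 1 was again far above the other 3, and all LEGSKO+BSO libraries were below all WT libraries. Idi1 fell by 0.89 (SE 0.23, adjusted p = 0.0407), and without WT Fibers 1 it fell by 0.47 (SE 0.10, adjusted p = 0.00772). Leaving out any 1 of the 4 LEGSKO+BSO fiber libraries ended the call, at adjusted p from 0.0633 to 0.114. Fdps differed by -0.45 (SE 0.15) and Ggps1 by -0.09 (SE 0.08), neither called by edgeR, while DESeq2 called Fdps. The difference of Fdps was -0.24 (SE 0.09) without WT Fibers 1.

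Fdft1 (chr14:63145150-63181687), which joins farnesyl units to squalene, was at 102, 69.7, 64.4 and 64.7 CPM for WT, 50.3, 60.0, 51.1 and 47.5 for LEGSKO and 46.2, 55.8, 47.1 and 50.3 for LEGSKO+BSO fibers. Every LEGSKO and LEGSKO+BSO library was below every WT library. It fell by 0.59 for LEGSKO+BSO (SE 0.13, adjusted p = 0.0184), and by 0.41 (SE 0.08, adjusted p = 0.00496) without WT Fibers 1. Without LEGSKO+BSO Fibers 1, 3 or 4 its adjusted p was 0.0679, 0.0614 and 0.0507. Exons of Ctsb on the opposite strand cover 18.3% of the exon bases of Fdft1, and whether the counts kept strand is not stated, so that their reads cannot be told apart.

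Sqle (chr15:59315092-59331193), the epoxidase that follows, was at 40.3, 20.3, 16.6 and 18.99 CPM for WT, 15.02, 17.8, 18.4 and 15.9 for LEGSKO and 14.8, 15.2, 14.4 and 13.7 for LEGSKO+BSO fibers. The LEGSKO+BSO libraries were all lower than WT, and the change of -0.71 (SE 0.20) missed the threshold at adjusted p = 0.0543. Without WT Fibers 1 the change was smaller and passed, at -0.36 (SE 0.09, adjusted p = 0.0171). Leaving out WT Fibers 3 or WT Fibers 4 also brought it past the threshold, at adjusted p = 0.0285 and 0.0472. It also passed by DESeq2 and in edgeR without the filter on low counts (adjusted p = 0.0121 and 0.0249). Lss, lanosterol synthase, differed by -0.28 (SE 0.08), called by DESeq2 and not by edgeR.

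Msmo1 (chr8:64718123-64733578), the methylsterol oxidase of the ring steps, was at 35.4, 24.4, 19.7 and 22.1 CPM for WT, 15.4, 18.8, 19.9 and 15.1 for LEGSKO and 13.3, 14.5, 11.50 and 13.4 for LEGSKO+BSO fibers. The 3 groups lay in descending order of their means, and LEGSKO+BSO overlapped neither of the others. Msmo1 fell by 0.94 (SE 0.15, 1.91-fold lower, adjusted p = 0.00345), and by 0.75 (SE 0.10) without WT Fibers 1. The call held in all 14 alternatives tried for it.

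Dhcr7 (chr7:143823167-143848410) was at 94.0, 33.1, 32.5 and 34.1 CPM for WT, 27.6, 30.4, 31.0 and 32.8 for LEGSKO and 24.4, 25.9, 26.3 and 22.7 for LEGSKO+BSO fibers. WT Fibers 1 was far above the other WT libraries, which lay close together, and the LEGSKO+BSO libraries were below all of them. Dhcr7 fell by 0.95 (SE 0.27, adjusted p = 0.0495), and without WT Fibers 1 it fell by 0.42 (SE 0.07, adjusted p = 0.00224). With that library kept, leaving out any 1 LEGSKO+BSO fiber library ended the call, at adjusted p from 0.0925 to 0.123. Of the other 7 ring and side chain members, 6 differed by -0.38 (Cyp51) to -0.12 (Tm7sf2, a sterol reductase) and Ebp, the sterol isomerase, by 0.05 (-0.03 without WT Fibers 1), none called by edgeR. Cyp51 was called lower by DESeq2, and in edgeR without the filter on low counts or without WT Fibers 3.

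**Figure D3:**
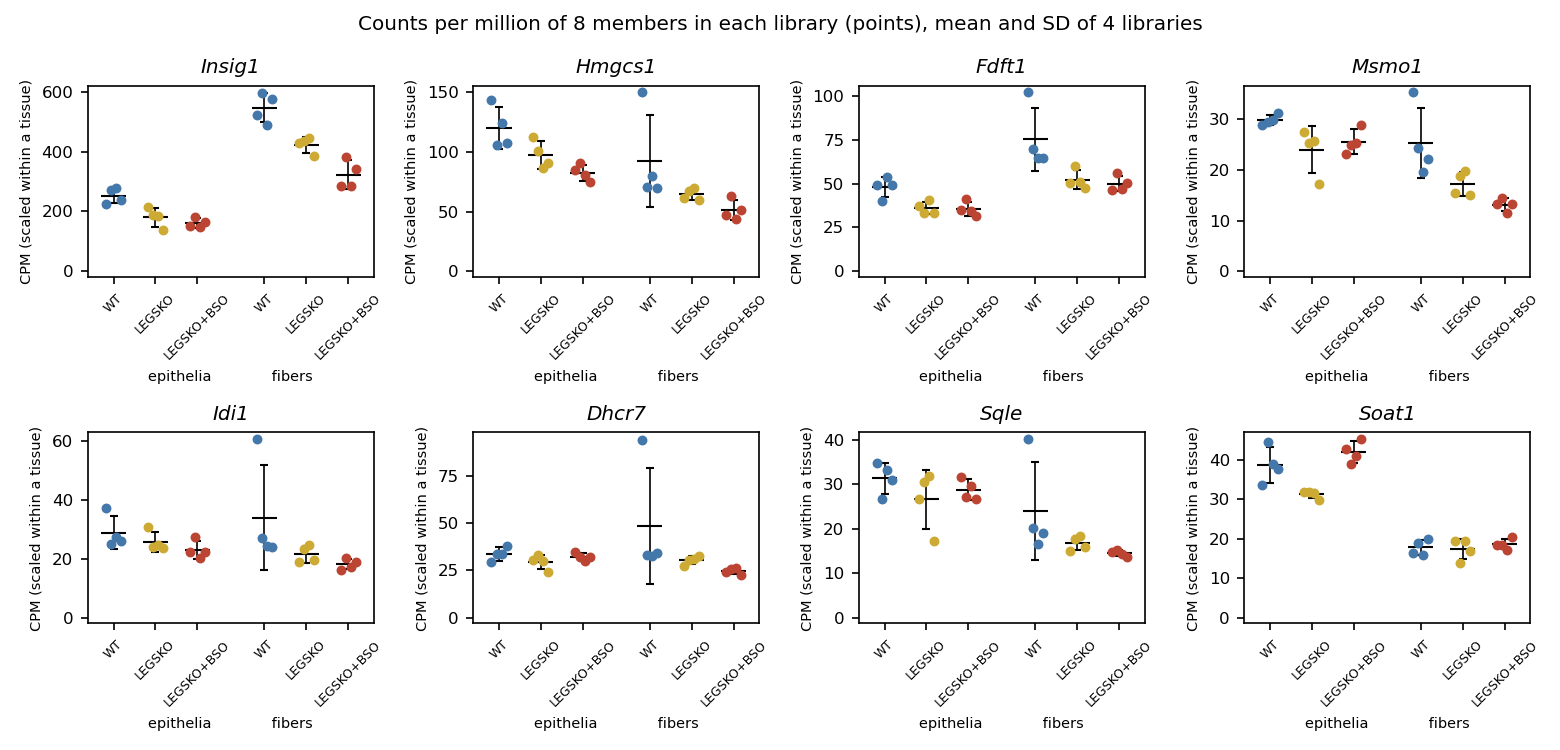
CPM of 8 members in each library (points), with mean (horizontal bar) and SD (vertical bar) of 4 libraries, for WT (blue), LEGSKO (yellow) and LEGSKO+BSO (red) epithelia and fibers, on axes that include 0. For Hmgcs1, Fdft1, Idi1, Dhcr7 and Sqle, 1 WT fiber library lies well above the other 3. Insig1 is lower in each LEGSKO+BSO library than in every WT library of its tissue.

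Of the 8 uptake, transport and storage members 0 were called in LEGSKO+BSO fibers (edgeR), and 3 were lower at an unadjusted p below 0.05, namely Stard4 (-0.51, SE 0.16), Vldlr, the VLDL receptor (-0.36, SE 0.12), and Npc2 (-0.20, SE 0.09). DESeq2 called Stard4. Npc1, the lysosomal membrane protein that exports cholesterol, was at 34.5, 52.3, 43.8 and 49.6 CPM for WT, 41.7, 35.1, 37.8 and 39.7 for LEGSKO and 41.8, 43.3, 41.8 and 38.1 for LEGSKO+BSO fibers. WT Fibers 1 was the lowest WT library here, the groups overlapped, and the change in LEGSKO+BSO was -0.13 (SE 0.10, adjusted p = 0.510). Without WT Fibers 1 the LEGSKO+BSO libraries all lay below WT, at a change of -0.24 (SE 0.08, adjusted p = 0.0638). Soat1, which esterifies cholesterol for storage, was at 16.3, 19.1, 16.04 and 19.97 for WT, 19.4, 13.97, 19.45 and 16.8 for LEGSKO and 18.6, 18.5, 17.3 and 20.4 for LEGSKO+BSO fibers, overlapping throughout, with a log2 difference of 0.06 (SE 0.10). Among the rest of this group, Scarb1 (0.01, SE 0.12), Lrp8 (-0.01, SE 0.16) and Tmem97, a membrane protein that binds NPC1 (-0.01, SE 0.19), had estimates near 0. They were -0.01, -0.02 and 0.06 without WT Fibers 1, and that of Soat1 was 0.02.

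Without WT Fibers 1, 9 members were called lower in LEGSKO+BSO fibers, among 7.90% of all genes called in either direction. They were the 6 above together with Sqle, Vldlr and Lbr, the lamin B receptor and sterol reductase. The median over the 33 was then -0.21, with 30 below 0. Summed over the 21 synthesis enzymes, CPM were 907, 613, 575 and 579 for the 4 WT fiber libraries, 501, 555, 553 and 508 for LEGSKO, and 472, 521, 459.8 and 475 for LEGSKO+BSO. All LEGSKO and LEGSKO+BSO sums were below all WT sums, and the 3 WT libraries other than the first lay close to the LEGSKO range. Acta2, which carries the muscle and stroma list given above, moved with the groups in fibers, and its part in these results was not tested.

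**Figure D4:**
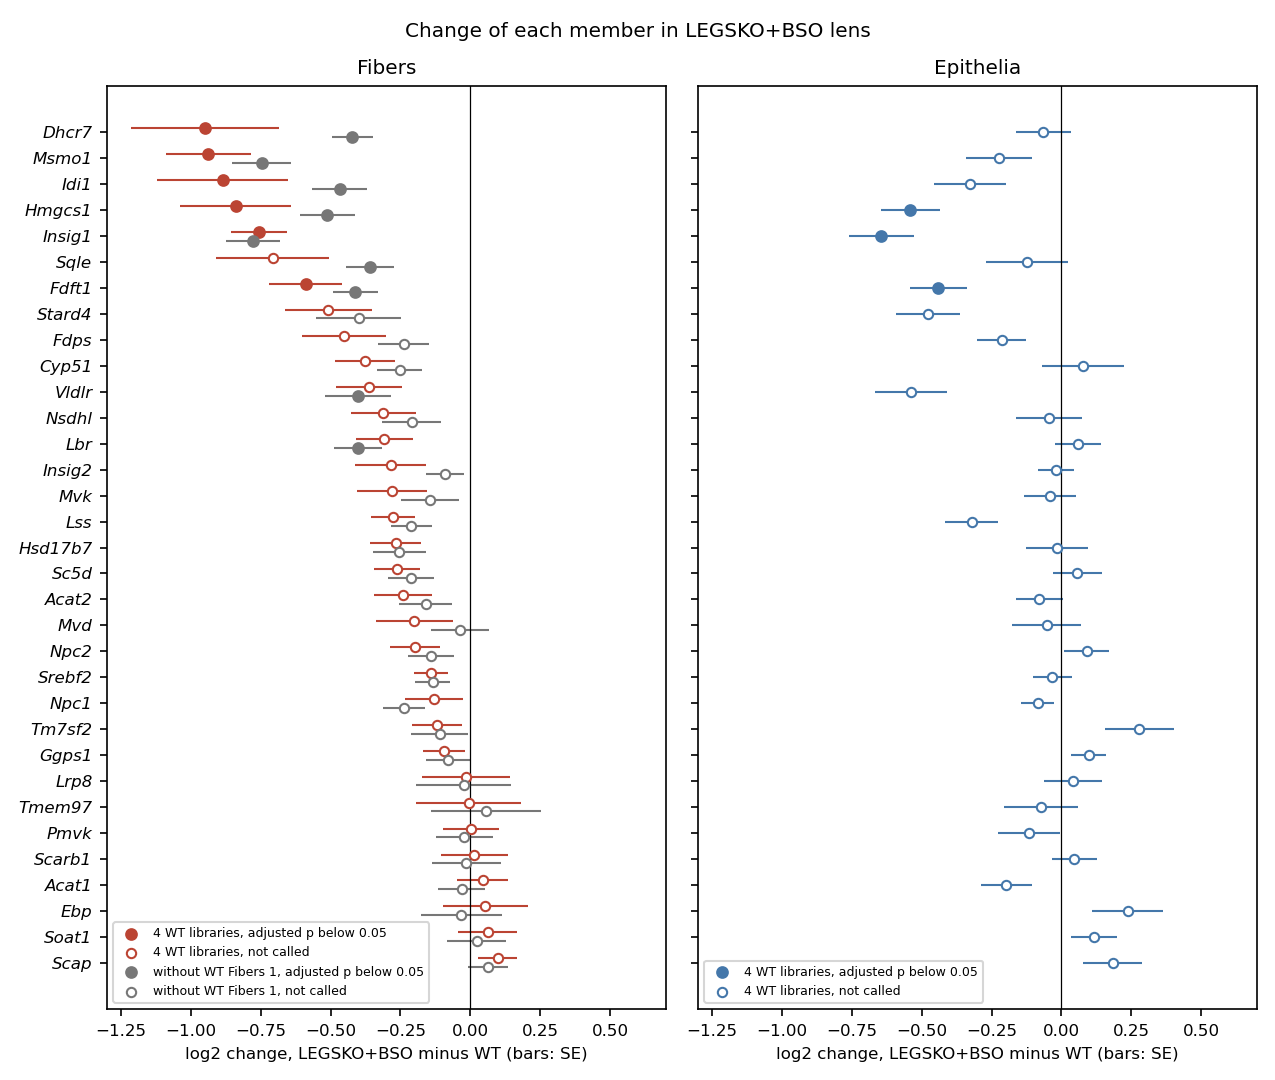
Log2 change of each member in LEGSKO+BSO against WT, with SE bars, in fibers (left, red with all 4 WT libraries and gray without WT Fibers 1) and epithelia (right). Filled points have an adjusted p below 0.05. Without WT Fibers 1 the fiber changes of Dhcr7, Idi1, Hmgcs1 and Sqle are smaller and 9 members are filled, while Insig1 is at -0.76 with it and -0.78 without it.

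In LEGSKO fibers without the drug 0 members passed the test against WT fibers (edgeR), while 1.64% of all genes did (1.09% higher and 0.543% lower). At an unadjusted p below 0.05 there were 14, all lower, against 7.50% of all genes lower, and DESeq2 called 3 (Fdft1, Insig1 and Msmo1). The change was below 0 for 29 of 33 members, with a median of -0.18, beside -0.01 over all genes. Those nearest to the threshold were Fdft1 at -0.52 (SE 0.13, adjusted p = 0.0597), Insig1 at -0.37 (SE 0.10, adjusted p = 0.0818) and Msmo1 at -0.55 (SE 0.15, adjusted p = 0.0916, or -0.36 and 0.0645 without WT Fibers 1). Groups did not overlap for 6 members (Hmgcs1, Mvk, Fdft1, Tm7sf2, Insig1 and Sc5d, a sterol desaturase), all lower, against 4.14% of all genes.

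Without WT Fibers 1, 3 members fell in LEGSKO fibers, among 4.34% of all genes called in either direction. Fdft1 fell by 0.35 (SE 0.08, adjusted p = 0.0206), Insig1 by 0.40 (SE 0.10, adjusted p = 0.0282) and Npc1 by 0.34 (SE 0.08, adjusted p = 0.0178). The comparisons of LEGSKO and of LEGSKO+BSO with WT share the WT libraries, so that their likeness is not independent.

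Adding the drug to LEGSKO called 0 members in fibers (edgeR), with 4 genes, 0.0298% of all, called in total (0.0223% higher and 0.00744% lower). At an unadjusted p below 0.05 there were 3, against 10.5% of all genes (4.85% lower), namely Insig1 (-0.39, SE 0.10) and Msmo1 (-0.39, SE 0.15) lower and Scap higher (0.27, SE 0.07), and DESeq2 called Insig1. All 4 LEGSKO+BSO libraries lay below all 4 LEGSKO libraries for Insig1, Msmo1 and Dhcr7, against 4.21% of all genes. For Scap all 4 lay above, against 4.78%. With WT Fibers 1 taken out of the shared estimate of the spread, an alternative chosen after seeing the data, 93 genes were called and still 0 members, with 7 at an unadjusted p below 0.05 (Hmgcs1, Idi1, Sqle and Dhcr7 added, all lower), and Insig1 and Dhcr7 both reached adjusted p = 0.0655. Fitting only the 2 groups compared also gave 7 at an unadjusted p below 0.05 and 0 called. The share of all genes at that p was not taken for either alternative, so neither 7 is read as a result about the members.

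In epithelia 3 members fell in LEGSKO+BSO against WT and 0 rose, namely Insig1, Hmgcs1 and Fdft1. Of 15089 genes, 1.17% were called, 0.378% lower and 0.795% higher. Among the members 22 of 33 had a change below 0, with a median of -0.05, beside -0.01 over all genes. Groups did not overlap for 6 (Hmgcs1, Fdps, Lss, Insig1, Stard4 and Vldlr), all lower, against 3.64% of all genes. At an unadjusted p below 0.05 there were 10, of which 9 were lower, against 14.8% of all genes, 7.31% lower.

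Insig1 was at 226, 271, 278 and 238 CPM for WT, 215, 188, 184 and 138 for LEGSKO and 152, 183, 148 and 166 for LEGSKO+BSO epithelia. Both LEGSKO groups lay wholly below WT, and they overlapped each other. Insig1 fell by 0.64 for LEGSKO+BSO (SE 0.12, 1.56-fold lower, adjusted p = 0.0159). Without WT Epithelia 2, LEGSKO+BSO Epithelia 1 or LEGSKO+BSO Epithelia 3 its adjusted p was 0.0580, 0.0732 and 0.0684.

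Hmgcs1 was at 143, 106, 124 and 108 CPM for WT, 113, 101, 86.3 and 90.8 for LEGSKO and 84.9, 90.6, 80.7 and 74.7 for LEGSKO+BSO epithelia. Every LEGSKO+BSO library was below every WT library, and it fell by 0.54 (SE 0.10, adjusted p = 0.0238). Its adjusted p was 0.0574 without WT Epithelia 3 and 0.0818, 0.0872 and 0.0747 without LEGSKO+BSO Epithelia 1, 3 or 4.

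Fdft1 was at 48.9, 40.2, 54.0 and 49.2 CPM for WT, 37.4, 33.1, 40.4 and 33.5 for LEGSKO and 34.8, 41.2, 34.6 and 31.4 for LEGSKO+BSO epithelia. The highest LEGSKO+BSO library overlapped the lowest WT library, and the change of -0.44 (SE 0.10) lay just inside the threshold, at adjusted p = 0.0498. Leaving out 6 of the 8 libraries compared, namely all but WT Epithelia 2 and LEGSKO+BSO Epithelia 2, ended the call one at a time, at adjusted p from 0.0740 to 0.150. Stard4 and Vldlr were just outside, at -0.48 (SE 0.11) and -0.54 (SE 0.13), both with adjusted p = 0.0590, and DESeq2 called both in addition to the 3. Fitting only the 2 groups compared called Vldlr in place of Fdft1 (adjusted p = 0.0965). Corneal markers rose in the same libraries, with 3 of the 3 tested of 6 called higher in LEGSKO+BSO against WT. The 10 lens fiber markers, whose sums by group are given above, had a median log2 change of -0.32 in LEGSKO+BSO against WT epithelia, and Insig1, Hmgcs1 and Fdft1 are members with higher levels in WT fibers than in WT epithelia. The part of either marker list in these results was not tested.

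The ring and side chain members that fell in LEGSKO+BSO fibers did not pass in epithelia. Msmo1 was at 29.0, 29.5, 29.8 and 31.4 CPM in WT and 23.1, 24.9, 25.3 and 29.0 for LEGSKO+BSO epithelia, with the highest LEGSKO+BSO library just inside the WT range, and differed by -0.22 (SE 0.12). Dhcr7 was at 29.4, 33.9, 33.4 and 38.0 for WT, 30.4, 33.0, 30.0 and 24.1 for LEGSKO and 34.8, 32.3, 30.0 and 31.9 for LEGSKO+BSO epithelia. Idi1 was at 37.2, 25.3, 27.4 and 26.2 for WT, 30.8, 24.1, 24.8 and 23.7 for LEGSKO and 22.6, 27.4, 20.4 and 22.3 for LEGSKO+BSO epithelia. Both overlapped between LEGSKO+BSO and WT, with changes in LEGSKO+BSO of -0.06 (SE 0.10) and -0.33 (SE 0.13). Sqle was at 34.7, 26.6, 33.1 and 30.9 for WT, 26.7, 30.5, 31.8 and 17.3 for LEGSKO and 31.7, 27.1, 29.7 and 26.7 for LEGSKO+BSO epithelia, where LEGSKO 4 was low and the rest overlapped.

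Srebf2 was at 128, 144, 144 and 144 CPM for WT, 139, 150.2, 135 and 123 for LEGSKO and 145, 135, 133 and 134 for LEGSKO+BSO epithelia. Npc1 was at 88.3, 99.4, 90.6 and 91.8 for WT, 80.0, 88.8, 85.0 and 81.3 for LEGSKO and 87.9, 83.8, 85.6 and 91.4 for LEGSKO+BSO epithelia. Both overlapped between WT and LEGSKO+BSO, with changes of -0.03 (SE 0.07) and -0.08 (SE 0.06), not called.

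In LEGSKO epithelia against WT 0 members passed (edgeR), while 0.842% of all genes did (0.583% higher and 0.258% lower). At an unadjusted p below 0.05 there were 12, of which 11 were lower and Ggps1 higher, against 14.1% of all genes in either direction and 6.83% lower, and DESeq2 called 3 (Fdft1, Soat1 and Insig1). The median was -0.12, beside -0.01 over all genes, with 24 of 33 below 0. Groups did not overlap for Msmo1, Insig1, Vldlr and Soat1, all lower, against 3.68% of all genes. The lowest adjusted p was that of Insig1, 0.0682, at a change of -0.48 (SE 0.12). Msmo1 was at 27.6, 25.4, 25.8 and 17.2 CPM in LEGSKO epithelia, and library 4 was the lowest of that group for Msmo1, Insig1, Sqle and Cyp51.

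Without WT Epithelia 1 the count of members called was 2, and without LEGSKO Epithelia 1 it was 1. The share of all genes called in those fits is not given here, so the counts have no background beside them. Corneal markers were again higher, with 2 of the 3 tested called in LEGSKO against WT, and the median of the lens fiber markers was -0.34. Their part was not tested.

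Adding the drug to LEGSKO epithelia raised 1 member, Soat1, the sterol esterifying enzyme, among 0.722% of all genes called, 0.325% higher and 0.398% lower. At an unadjusted p below 0.05 there were 7 members, 4 higher and 3 lower, against 19.3% of all genes, 10.7% lower. Soat1 was at 33.7, 44.6, 39.1 and 37.8 CPM for WT, 31.9, 31.9, 31.7 and 29.8 for LEGSKO and 42.8, 38.9, 40.9 and 45.4 for LEGSKO+BSO epithelia. The LEGSKO libraries lay together below all WT and LEGSKO+BSO libraries, and WT and LEGSKO+BSO overlapped. It rose by 0.42 (SE 0.08, 1.34-fold, adjusted p = 0.0339) against LEGSKO and differed from WT by 0.12 (SE 0.08, adjusted p = 0.533). Leaving out any 1 of the 8 libraries other than LEGSKO+BSO Epithelia 2 ended the call, at adjusted p from 0.0634 to 0.112, and without LEGSKO+BSO Epithelia 2 the count of members called was 3. The share of all genes called in that last fit is not given here. Among the 32 members not called by edgeR, Cyp51 (0.44, SE 0.15), Tm7sf2 (0.36, SE 0.12) and Lbr (0.33, SE 0.08) were higher in all 4 LEGSKO+BSO libraries than in any LEGSKO library, against 5.39% of all genes. DESeq2 called Soat1 and Lbr higher and Acat1 lower.

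Whether fibers and epithelia differed in their response was tested directly, over 24 libraries. For LEGSKO+BSO against WT 0 members passed (edgeR), with 0.276% of all genes called. At an unadjusted p below 0.05 there were 8, all more negative in fibers, against 6.93% of all genes in that direction and 13.6% in either, and DESeq2 called 0. Leaving out WT Fibers 1 gave 4 (Tm7sf2, Lbr, Msmo1 and Dhcr7), all more negative in fibers, and the share of all genes was not taken for that fit. The lowest adjusted p was that of Msmo1, 0.116, at a difference of -0.71 (SE 0.20), or -0.50 (adjusted p = 0.178) without WT Fibers 1. With that library left out the lowest was that of Lbr, 0.0848, at -0.44 (SE 0.12). Dhcr7 differed by -0.88 (SE 0.31), or -0.34 without WT Fibers 1, and Insig1 by -0.11 (SE 0.16). For LEGSKO against WT 0 members passed, with 0.103% of all genes called. At an unadjusted p below 0.05 there was 1 (9.06% of all genes), or 0 without WT Fibers 1. For LEGSKO+BSO against LEGSKO 0 passed, with 5 at an unadjusted p below 0.05 (10.6% of all genes) and 0.0321% of all genes called. DESeq2 called 0 in both. The larger number of calls in fibers is therefore not shown to be a difference between the tissues.

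Genes around these members were taken from 4 lists. Of 10 genes of efflux and oxysterol handling, 8 were tested in fibers and 3 rose in LEGSKO+BSO against WT, with 0 falling and a median of 0.29, beside 3.05% of all genes higher and a median of -0.01. Abca1, which exports cholesterol to apolipoprotein A-I, was at 5.89, 14.8, 22.9 and 14.7 CPM for WT, 27.4, 16.2, 23.6 and 25.96 for LEGSKO and 39.1, 26.7, 45.1 and 44.95 for LEGSKO+BSO fibers. All LEGSKO+BSO libraries were above all WT libraries, and Abca1 rose by 1.40 (SE 0.27, 2.64-fold, adjusted p = 0.0106). WT Fibers 1 was the lowest WT library. The call held in all 14 alternatives, with changes from 1.16 to 1.69.

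Abcg1, which exports cholesterol to HDL, was at 0, 0.0945, 0.0750 and 0.238 CPM for WT, 0.735, 0.559, 1.27 and 1.43 for LEGSKO and 2.00, 0.310, 1.52 and 1.51 for LEGSKO+BSO fibers. It was at or near 0 in WT, and every library of the other groups was above every WT library. The fitted rise was 3.12 in LEGSKO (SE 0.68, adjusted p = 0.0336) and 3.53 for LEGSKO+BSO (SE 0.65, adjusted p = 0.00746), values that depend on the few WT counts. In LEGSKO the call was lost without WT Fibers 2, WT Fibers 3, LEGSKO Fibers 3 or LEGSKO Fibers 4, at adjusted p = 0.100, 0.0799, 0.111 and 0.0859. Mylip, the ubiquitin ligase that degrades lipoprotein receptors, was at 7.45, 11.1, 10.2 and 13.3 CPM in WT and 15.02, 13.1, 16.6 and 14.7 for LEGSKO+BSO fibers, overlapping, and rose by 0.48 (SE 0.13, adjusted p = 0.0460). That call was lost without WT Fibers 2 or 3 or without LEGSKO+BSO Fibers 1, 3 or 4, at adjusted p of 0.0774 to 0.131. Abca1, Abcg1 and Mylip are known targets of the oxysterol receptors LXR.

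**Figure D5:**
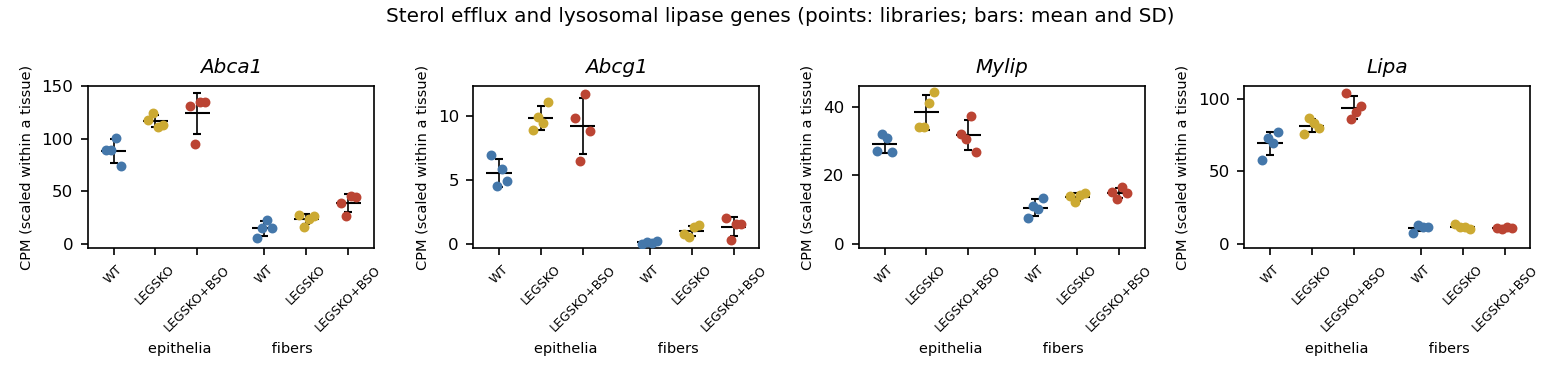
CPM of Abca1, Abcg1, Mylip and Lipa in each library (points), with mean and SD of 4 libraries, for WT (blue), LEGSKO (yellow) and LEGSKO+BSO (red) epithelia and fibers, on axes that include 0. Abca1 and Abcg1 are higher in LEGSKO+BSO than in WT libraries of fibers, and Lipa is higher in LEGSKO+BSO than in WT libraries of epithelia.

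In epithelia Abcg1 was at 6.97, 4.54, 5.83 and 4.91 CPM for WT, 8.88, 9.90, 9.45 and 11.1 for LEGSKO and 9.84, 6.44, 11.8 and 8.84 for LEGSKO+BSO. It rose by 0.82 in LEGSKO (SE 0.18, adjusted p = 0.0420), with no overlap, and was at 0.73 for LEGSKO+BSO (SE 0.18, adjusted p = 0.0617), called by DESeq2 and not by edgeR. Leaving out WT Epithelia 2, 3 or 4, or LEGSKO Epithelia 2, 3 or 4, ended the LEGSKO call, at adjusted p of 0.0741 to 0.142. Abca1 was at 89.6, 89.0, 101 and 74.0 CPM for WT, 118, 124, 111 and 114 for LEGSKO and 131, 95.4, 135 and 135 for LEGSKO+BSO epithelia, where LEGSKO+BSO Epithelia 2 was the low one and lay within the WT range. It rose by 0.49 for LEGSKO+BSO (SE 0.11, adjusted p = 0.0442), a call lost without WT Epithelia 1, 2 or 4 or LEGSKO+BSO Epithelia 1, 3 or 4, or with only the 2 groups compared, at adjusted p of 0.0676 to 0.148. Of the 9 genes of this list tested in epithelia, 1 rose in each comparison with WT and 0 fell (edgeR), beside 0.583% of all genes higher in LEGSKO and 0.795% in LEGSKO+BSO. DESeq2 called 3 of the list in LEGSKO (Abca1, Abcg1 and Mylip) and 2 in LEGSKO+BSO (Abca1 and Abcg1).

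Of 18 genes of intracellular sterol transport and SREBP processing, 1 rose in LEGSKO+BSO epithelia, beside the 0.795% of all genes given above, namely Lipa, the lysosomal acid lipase that frees cholesterol from its esters. Lipa was at 58.1, 72.8, 69.7 and 76.8 CPM for WT, 75.9, 86.6, 83.3 and 79.5 for LEGSKO and 104, 85.7, 90.8 and 95.3 for LEGSKO+BSO epithelia. Every LEGSKO+BSO library was above every WT library, and the rise was 0.44 (SE 0.09, adjusted p = 0.0248), lost without WT Epithelia 2 or 3 or LEGSKO+BSO Epithelia 1, 3 or 4, or with only the 2 groups compared, at adjusted p of 0.0567 to 0.105. In LEGSKO+BSO fibers 1 of the 18 fell, beside 2.47% of all genes, namely Pgrmc1, a heme-binding membrane protein, which was at 27.8, 27.1, 21.3 and 24.5 CPM in WT and 19.6, 20.04, 17.3 and 21.4 for LEGSKO+BSO, a change of -0.36 (SE 0.09, adjusted p = 0.0302). Its highest LEGSKO+BSO library just overlapped WT, and the call was lost without WT Fibers 2 or LEGSKO+BSO Fibers 1, 2 or 3, at adjusted p of 0.0530 to 0.100.

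Among 12 genes that draw isoprenoids away from sterol, 1 rose in LEGSKO+BSO fibers (3.05% of all genes), Coq2, which attaches the side chain of coenzyme Q. Coq2 was at 31.8, 29.5, 31.7 and 27.4 CPM in WT and 35.3, 33.7, 36.8 and 37.1 for LEGSKO+BSO fibers, with no overlap, a rise of 0.25 (SE 0.06, adjusted p = 0.0389). Of 7 lipoprotein receptors and adaptors tested, 1 fell in LEGSKO+BSO fibers (2.47% of all genes), Cd36, a fatty acid and lipoprotein scavenger receptor. Cd36 was at 1.45, 0.346, 1.24 and 0.747 CPM in WT and 0.115, 0.435, 0.112 and 0.255 for LEGSKO+BSO fibers, low and overlapping values, with a change of -1.97 (SE 0.52, adjusted p = 0.0405). The Coq2 call was lost without WT Fibers 2 or 4 or LEGSKO+BSO Fibers 1, 3 or 4, at adjusted p of 0.0805 to 0.103, and the Cd36 call without WT Fibers 1, 3 or 4 or LEGSKO+BSO Fibers 1, 3 or 4, at 0.0551 to 0.118. With only the 2 groups compared, Mylip, Pgrmc1, Coq2 and Cd36 were not called in LEGSKO+BSO fibers, at adjusted p = 0.101, 0.0661, 0.0716 and 0.0752. Between LEGSKO+BSO and LEGSKO, 0 of the 46 genes of the 4 lists tested in epithelia and 0 of the 45 tested in fibers passed (edgeR), beside 0.722% and 0.0298% of all genes. In each tissue 7 had an unadjusted p below 0.05, against 19.3% and 10.5% of all genes, and DESeq2 called 0 in epithelia and 1, Rabggtb, in fibers.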

How the data were processed

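The authors deposited raw counts per gene for 24 libraries, keyed by Entrez identifier. The tools named, per the submitters' processing notes and with no role or order, are TopHat, DESeq, CASAVA 1.8 and bcl2fastq, and the build is mm10 (GRCm38). What counted the reads, with which annotation and strand setting, is not given in the sources at hand. Symbols came from a RefSeq table of that build (24334 of 24415 matched, and the other 81 held 0.914% of counts). Exons of other genes overlap those of 11 members, and reads of such genes, or of near copies such as Acat2 and Acat3, cannot be told apart.

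The test was edgeR 4.0.16 (R 4.3.3) on the counts as deposited (TMM, filterByExpr with minimum count 10 and minimum total 15, two-sided quasi-likelihood F test, Benjamini-Hochberg over all genes, threshold 0.05). Conditions were compared with the 12 libraries of a tissue sharing 1 estimate of the spread. Fibers were compared with epithelia, and responses between tissues, over 24 libraries in 6 groups. Standard errors are the log2 change divided by the root of F. Exon lengths are the union of GENCODE M21 exons. The procedure was tested on simulated counts. No 2 libraries of a group were duplicates (chi-square per degree of freedom 5.27 to 345).

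Alternatives were DESeq2 1.42.0, other size factors, no filter, the replicate block, crystallin genes left out, only the 2 groups compared, and leaving out each library. Values were named for members called in any condition comparison, for Hmgcs1, Sqle, Insig1, Srebf2, Dhcr7 and Npc1, for the highest and lowest called member of each role group between tissues, and for other sterol genes called between conditions. Other genes named, such as Stard4, Vldlr, Fdps, Cyp51 and Rabggtb, were chosen after their values were seen. The members and lists were chosen with earlier results of these data known. Motifs were searched and figures drawn with Python.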

Additional observations from a re-analysis of the deposited data

Results flagged for a closer look

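Over the 10 members named with values in every library and their summed enzymes, 66 groups of 4 libraries were searched for 1 library far from the other 3, and 10 were found. The nominal rate of this rule is about 1 in 20 for independent groups. These groups reuse the same 24 libraries, the sum contains several of the members, and most members were named because they were called. The number found can therefore not be set against that rate. Of the 10, 6 were the same library, WT Fibers 1. It was high for Hmgcs1 at 150.01 CPM (next library 79.7), Dhcr7 at 94.0 (next 34.1), Fdft1 at 102 (next 69.7), Idi1 at 60.8 (next 27.0), Sqle at 40.3 (next 20.3) and the sum of the 21 synthesis enzymes at 907 (next 613). The same library had the highest crystallin share, 50.1%, and the lowest Abca1 of its group, 5.89 CPM. Whether these go together was not tested.

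The other 4 were small departures in epithelia. Srebf2 was at 127.7 CPM in WT Epithelia 1, below 143.7 in the next library, and at 145 in LEGSKO+BSO Epithelia 1, above 134.8. Idi1 was at 30.8 in LEGSKO Epithelia 1, above 24.8, and Soat1 at 29.8 in LEGSKO Epithelia 4, below 31.7.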

How the results depend on the processing

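Of 27 gene results followed under every alternative, 0 changed direction. Among all members, leaving out WT Fibers 1 turned the sign of 5 estimates near 0 in LEGSKO+BSO against WT fibers (Acat1, Pmvk, Ebp, Scarb1 and Tmem97, between -0.03 and 0.06), of 1 in LEGSKO against WT fibers (Mvd), and of 6 and 4 differences between tissues for LEGSKO and LEGSKO+BSO against WT, with no such member called in either fit. In counts of members called, in the order LEGSKO against WT, LEGSKO+BSO against WT and LEGSKO+BSO against LEGSKO, DESeq2 gave 3, 5 and 3 in epithelia and 3, 11 and 1 in fibers, against 0, 3, 1, 0, 6 and 0 in edgeR. Without the filter LEGSKO against WT gave 1 in epithelia and 2 in fibers, and LEGSKO+BSO against WT gave 5 in epithelia and 8 in fibers (Cyp51 and Sqle added), while Coq2 was lost at adjusted p = 0.0502. Leaving out 1 library at a time gave 0 to 2, 0 to 4 and 0 to 3 in epithelia and 0 to 3, 2 to 9 and 0 to 0 in fibers. The 2 came without LEGSKO+BSO Fibers 1, 3 or 4, and the 0 for LEGSKO+BSO against WT epithelia without LEGSKO+BSO Epithelia 1 or 3, and 1 was left without WT Epithelia 3 or LEGSKO+BSO Epithelia 4. Other size factors and leaving out crystallin genes kept every count between conditions, and fitting only the 2 groups compared gave 4 in LEGSKO+BSO against WT fibers, of which Fdft1, Insig1 and Msmo1 are among the 6 and Vldlr is not. In fibers against epithelia all counts stayed within 23 to 26, and differences between tissues gave 0 throughout. The causes were not tested, and the shares of all genes called under these alternatives are not given beside these counts. An added alternative, chosen after seeing the data, left WT Fibers 1 out of the comparison of LEGSKO+BSO with LEGSKO fibers and gave 0.

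With the replicate block, LEGSKO+BSO against LEGSKO epithelia called 0 members, LEGSKO+BSO against WT called 3 in epithelia (Hmgcs1, Vldlr and Insig1) and 4 in fibers (Fdft1, Hmgcs1, Insig1 and Msmo1), and the other counts did not move. Among the other sterol genes it ended the calls of Abca1 in epithelia and of Mylip, Coq2 and Cd36 in fibers, at adjusted p = 0.0675, 0.0511, 0.0660 and 0.0806. The numbers share no stated source. Within a tissue, same-numbered libraries did not deviate together (correlations -0.27 to 0.27 in epithelia and -0.17 to 0.16 in fibers). Between tissues their correlations were -0.05 to 0.19 with a mean of 0.055. Libraries of unlike number had -0.14 to 0.10 with a mean of -0.018. Whether the numbers pair epithelia with fibers is therefore not settled.

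With 4 libraries a group and 1 apart, small changes of the fiber members cannot be resolved. The member lowest in CPM was Tmem97, at 2.06 or more in every library. It and Lrp8, also low, had the widest errors in LEGSKO+BSO against WT fibers without WT Fibers 1. Their SE was 0.20 and 0.17, beside 0.06 for Srebf2, so changes of such low members are resolved less well.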
